A study of Mus musculus with 12 samples.

Results

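The cadherin superfamily was followed across the first day of sex-specific development in somatic support cells, the gonadal lineage that forms Sertoli cells in a testis and granulosa cells in an ovary. Members were the probe sets (groups of oligonucleotides on the array that read 1 transcript) with a single gene symbol of the Cdh, Cdhr, Pcdh, Celsr, Dsc, Dsg or Dchs families. The endothelial cadherin Cdh5 was left out by the same rule, which did not use any measured value. This gave 121 of 44238 tested probe sets and 69 of 17996 named genes. The Fat genes, Celsr1 and Dchs2 were not analysed here, and 11 cadherin probe sets with a blank value on an array were not used.

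RNA came from cells that had been sorted by flow cytometry from gonads of mice that carried the transgenes Tg(Sry-EGFP)92EI, in which Sry sequences drive the fluorescent reporter EGFP, and Tg(Tyr)3412ARpw on an FVB.Cg background in all groups. The 4 groups were XY cells at embryonic day 12.5 (E12.5), XX cells at E12.5, XY cells at E11.5 and XX cells at E11.5. There were 3 pools per group, each hybridised to its own Affymetrix mouse array, which makes 12 arrays. Whether separate litters made up the pools is not on the labels, so the p-values reflect variation among these pools, which may be technical in part.

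Cadherins are transmembrane proteins that bind to one another between neighbouring cells in the presence of calcium. Classical type I and type II cadherins join to the actin cytoskeleton through catenins, and like binds like well enough to sort cells into separate tissues. The desmosomal cadherins (desmocollins, Dsc, and desmogleins, Dsg) are anchored to intermediate filaments through plakoglobin, plakophilins and desmoplakin. Protocadherins adhere weakly and act mainly in recognition and signalling: clustered ones are encoded in tandem arrays and give neurons their identities, and non-clustered ones are found in many embryonic tissues. Dachsous binds Fat in the control of growth and polarity, and Celsr proteins carry planar cell polarity. In the fetal gonad, support cells enclose germ cells in cords in the testis, and remain in looser ovigerous clusters in the ovary.

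Signals are log2 values per probe set. Apart from a shared low limit, levels of different probe sets were not set against each other, since each has its own binding strength. The level read with no transcript present was taken from XX arrays at 5 probe sets of the Y-linked genes Eif2s3y, Kdm5d and Uty, which separated the sexes. These gave 3.33 to 5.17, and a fold change whose lower group mean lay at or under 5.17 is written as at least that size. The limit of 5.17 was used for every probe set and is approximate, since the level without transcript may differ among them. By this measure 32 of the 121 cadherin probe sets (26.4%) stayed at or under 5.17 on all 12 arrays, against 15.4% of all tested probe sets. The support cell list (Gata4, Wt1, Nr5a1, Lhx9 and Emx2) averaged 10.07 to 11.98 on the 12 arrays and the germ cell list of 9 genes 5.47 to 6.65. One array stood apart in its markers: XX E11.5 pool 2 read 8.48 over the 14 endothelial markers, against 6.31 to 7.06 on the other 11 arrays, and 10.35 over 9 interstitial mesenchyme markers, against 8.06 to 9.06. Of the 14 endothelial markers 13 were highest on that array, with Cdh5 at 8.81 and Pecam1 at 5.39, against 5.53 to 8.49 and 4.69 to 5.13 on the others. Its support cell list read 10.90, against 11.39 and 11.62 in XX E11.5 pools 1 and 3. Gata4 (8.60), Wt1 (11.53) and Nr5a1 (10.42) were lowest of the 12 arrays there, while Lhx9 (12.38) and Emx2 (11.56) were not.

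Differences were tested with limma over all probe sets, and a call means a Benjamini-Hochberg adjusted p under 0.05 (95% intervals are from the same fit). In all, 15 of the 69 genes had a called probe set in at least 1 of 5 comparisons. These set XY against XX cells on both days, set E12.5 against E11.5 cells within both sexes, and tested the interaction (the sex difference at E12.5 minus that at E11.5). The other 54 genes were called in none. The like share over all genes was not counted, so these numbers do not show whether cadherins were called unusually often. In bulk RNA, fewer cells of a type and less RNA per cell cannot be told apart.

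Several of the called genes are chromosomal neighbours. By RefSeq gene order, Pcdh8, Pcdh17, Pcdh20 and Pcdh9 lie near one another on mouse chromosome 14, with 1 further protein-coding gene between Pcdh8 and Pcdh17, 2 between Pcdh17 and Pcdh20 and 0 between Pcdh20 and Pcdh9. Cdh6, Cdh9, Cdh10 and Cdh12 are consecutive on chromosome 15. Promoter sequences (250 bases before to 50 after the gene start) of RefSeq, build GRCm38.p6, were found for 27 member genes. They are shown for Pcdh8, the gene whose sex difference changed most between the days, for Pcdh18, lower in XY than in XX cells at E12.5, and for Cdh10 and Pcdh20, which fell in both sexes. Capitals mark 2 core promoter motifs on either strand. One is TATAAA, the binding sequence of the general factor TBP. The other is CCAAT, that of the factor NF-Y. Pcdh8 is at chr14:79771263-79771562, minus strand. Pcdh18 is at chr3:49757267-49757566, minus strand. Cdh10 is at chr15:18820079-18820378, plus strand. Pcdh20 is at chr14:88471347-88471646, minus strand.
Pcdh8: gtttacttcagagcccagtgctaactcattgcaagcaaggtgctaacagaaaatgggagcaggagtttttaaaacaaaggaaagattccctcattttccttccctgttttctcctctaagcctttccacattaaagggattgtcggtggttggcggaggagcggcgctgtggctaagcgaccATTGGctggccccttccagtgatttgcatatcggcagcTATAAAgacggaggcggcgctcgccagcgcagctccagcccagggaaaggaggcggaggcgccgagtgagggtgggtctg
Pcdh18: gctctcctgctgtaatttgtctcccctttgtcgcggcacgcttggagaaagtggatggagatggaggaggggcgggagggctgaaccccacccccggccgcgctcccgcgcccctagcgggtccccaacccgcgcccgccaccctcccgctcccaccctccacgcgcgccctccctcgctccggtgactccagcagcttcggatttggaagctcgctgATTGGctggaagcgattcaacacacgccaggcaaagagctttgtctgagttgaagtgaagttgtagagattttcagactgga
Cdh10: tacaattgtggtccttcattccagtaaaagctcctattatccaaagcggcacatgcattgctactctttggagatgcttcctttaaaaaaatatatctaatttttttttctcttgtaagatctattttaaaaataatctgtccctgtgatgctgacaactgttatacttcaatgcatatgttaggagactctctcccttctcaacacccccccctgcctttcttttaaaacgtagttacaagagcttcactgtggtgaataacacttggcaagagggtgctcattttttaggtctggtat
Pcdh20: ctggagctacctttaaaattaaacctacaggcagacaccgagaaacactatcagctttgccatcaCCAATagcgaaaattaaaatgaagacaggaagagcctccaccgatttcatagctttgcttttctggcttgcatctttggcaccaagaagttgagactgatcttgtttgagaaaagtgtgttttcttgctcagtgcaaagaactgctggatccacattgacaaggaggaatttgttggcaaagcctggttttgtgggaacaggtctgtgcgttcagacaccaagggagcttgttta

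The Pcdh8 window held the TBP motif 30 bases and a reverse NF-Y motif 68 bases before the start. The Pcdh18 window held a reverse NF-Y motif 32 bases before it, the Pcdh20 window an NF-Y motif 185 bases before it, and the Cdh10 window neither. The TBP motif was in 13.6% and the NF-Y motif in 37.4% of all 32851 promoters of this length, and in 2 and 19 of the 30 promoter entries of members. Chromosome 18, where 32 of the 69 member genes lie, was left out of these 30 but not of the 32851. Motifs of 5 families of gonadal or cadherin regulators were searched likewise. They were AACAAT for SOX proteins, AGATAA for the zinc finger factors Gata4 and its kin, AAGGTCA for NR5A1, CACCTG for Snail and Zeb proteins, and CTTTGA for TCF and LEF proteins. None was in the 4 windows on either strand. They were in 10.7%, 11.2%, 4.72%, 20.2% and 16% of all promoters in that order, and in 0, 2, 1, 9 and 3 of the 30 of members. None of these motifs overlaps another in the windows shown. The GC content was 54.3% for Pcdh8, 63% for Pcdh18, 37.7% for Cdh10 and 43.7% for Pcdh20, beside a median of 52.7% for all promoters.

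At E12.5, 10 of the 121 cadherin probe sets (8.26%) differed between XY and XX cells, against 7.72% of all tested probe sets, so the share was near the background. Of these, 3 were higher in XY (2.48%, against 3.92% of all) and 7 lower (5.79%, against 3.81%), and they belonged to 7 genes. The median difference was -0.02 over the members and -0.00 over all probe sets. Higher in XY were Pcdh8, Cdh4 and Cdh19, and lower were Pcdh18, Dsc2, Cdhr4 and Cdh7. The plot of sex differences by class shows that neither the clustered protocadherins (0 of 29 probe sets) nor the Celsr and Dachsous genes contributed a call.

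**Figure D1:**
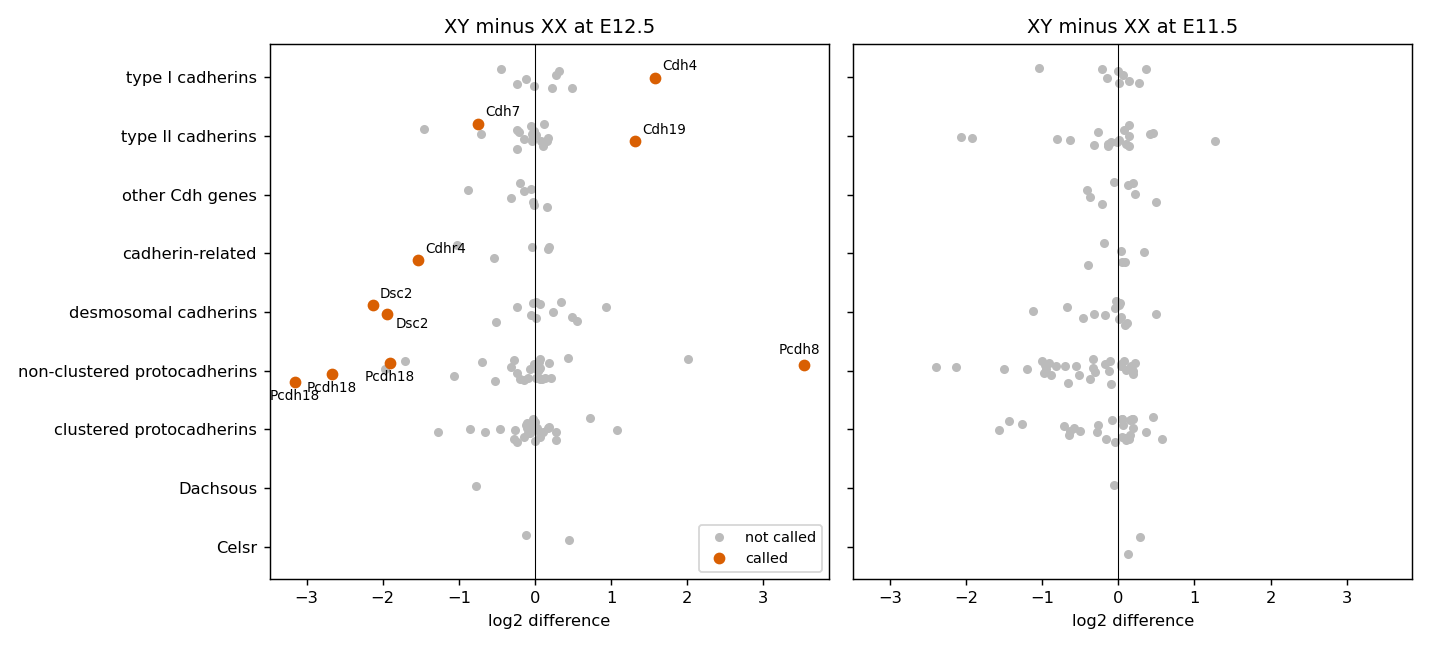
The horizontal axis is the log2 difference XY minus XX at E12.5 (left panel) and at E11.5 (right panel), and each point is 1 of 121 probe sets in 1 of 9 classes, spread vertically only to separate points. Orange points passed the adjusted p threshold: 10 at E12.5, from -3.15 at a Pcdh18 probe set to 3.53 at a Pcdh8 probe set, and 0 at E11.5.

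Pcdh8 (also called paraxial protocadherin), which guides cell movement and segmentation in the mesoderm, had the largest positive difference. At the dimmer of its probe sets the XY E12.5 pools read 7.86, 6.75 and 6.89, and the XX E12.5 pools 3.70, 3.43 and 3.77. All 3 XX pools lay at the level read without transcript and the groups did not overlap. Pcdh8 was at least 11.6-fold higher in XY (log2 difference 3.53, SE 0.72, limma adjusted p = 0.014). The call ended when either XY E12.5 pool 1 (adjusted p = 0.057) or XX E12.5 pool 2 (adjusted p = 0.0516) was left out. The brighter probe set, whose name marks probes that can match other transcripts (x_at), read 8.80, 7.42 and 7.53 in XY E12.5 and 6.23, 5.79 and 5.70 in XX E12.5. Its groups did not overlap either, but its difference of 2.01 (SE 0.61) missed the threshold at adjusted p = 0.082.

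Pcdh18, a non-clustered protocadherin known to bind the adaptor Dab1, was lower in XY at all 3 of its probe sets. At the second-brightest the XY E12.5 pools read 6.94, 8.09 and 7.78 and the XX E12.5 pools 10.33, 10.88 and 11.06. The lowest XX pool lay more than 2 log2 units above the highest XY pool. The difference was 8.88-fold (95% interval 5.56 to 14.2, adjusted p = 0.0002). The brightest gave 3.76-fold (adjusted p = 0.00028) and the dimmest at least 6.38-fold (adjusted p = 0.0006). All 3 calls were kept without each of the 12 arrays in turn.

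Desmocollin Dsc2, the most widely expressed desmocollin, was lower in XY at both of its probe sets. At the dimmer the XY E12.5 pools read 7.11, 6.29 and 6.78 and the XX E12.5 pools 8.94, 9.06 and 8.57. At the brighter they read 8.17, 8.18 and 7.90 in XY and 10.43, 9.66 and 10.02 in XX. The groups were apart at both, by 4.38-fold (95% interval 2.82 to 6.81, adjusted p = 0.0015) and 3.88-fold (2.16 to 6.95, adjusted p = 0.011). Both calls were kept without each array.

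Among classical cadherins, Cdh4 (R-cadherin, a type I cadherin first described in the retina) read 6.84, 7.64 and 7.15 in XY E12.5 at its brightest probe set and 5.82, 5.60 and 5.47 in XX E12.5. It was 2.99-fold higher in XY (95% interval 2.22 to 4.04, adjusted p = 0.00088), and its 2 dimmer probe sets were not called. The type II cadherin Cdh19, known from the Schwann cell lineage, read 5.83, 5.12 and 5.26 in XY E12.5 and 4.15, 3.99 and 4.13 in XX E12.5 at its single probe set. These levels were low, near the 5.17 limit in XY and below it in XX, and the fold was at least 2.49 (adjusted p = 0.0012). Both calls were kept without each array.

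The 2 remaining calls were less stable. Cdhr4, a cadherin-related gene, read 7.48, 7.46 and 7.11 in XY E12.5 and 8.69, 8.51 and 9.46 in XX E12.5 at its brighter probe set, whose name marks shared probes (s_at). It was 2.9-fold lower in XY (adjusted p = 0.014), and its other probe set gave -1.02 with adjusted p = 0.059. Without XY E12.5 pool 3 the first call ended (adjusted p = 0.058). Cdh7, a type II cadherin of neural crest and brain, read 5.29, 5.28 and 4.99 in XY E12.5 and 6.10, 6.06 and 5.63 in XX E12.5 at the brightest of its 3 probe sets. It was 1.68-fold lower in XY (adjusted p = 0.043). That call ended without any 1 of 7 arrays (XY E12.5 pools 1, 2 and 3, XX E12.5 pools 1 and 2, XY E11.5 pool 1 and XX E11.5 pool 3), with adjusted p from 0.056 to 0.15.

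Marker levels moved with these groups. Among the 5 support cell markers, Lhx9 read 8.37 to 8.65 in XY E12.5 and 12.60 to 12.77 in XX E12.5, and Emx2 read 8.26 to 8.76 in XY and 11.63 to 11.89 in XX. The other 3 overlapped between the sexes: Gata4 read 9.54 to 10.13 in XY and 9.44 to 10.12 in XX, Wt1 11.84 to 12.03 and 11.84 to 12.06, and the lowest Nr5a1 pool read 11.50 in both. The list mean of 10.07 to 10.18 in XY and 11.47 to 11.67 in XX therefore differed through Lhx9 and Emx2, while Gata4, Wt1 and Nr5a1 did not separate the groups. The 10 macrophage and leukocyte markers averaged 7.59 to 7.90 in XY and 7.11 to 7.24 in XX. The mesonephric and coelomic epithelium list, which holds the member Cdh16, averaged 7.29 to 7.41 in XY and 7.62 to 8.08 in XX. The 4 erythroid markers measured averaged 6.34 to 6.61 in XY and 6.11 to 6.12 in XX, although Gata1 was lower in XY. The part of these lists in the cadherin differences was not tested. The endothelial list overlapped, with 6.44 to 7.06 in XY and 6.33 to 6.82 in XX.

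**Figure D2:**
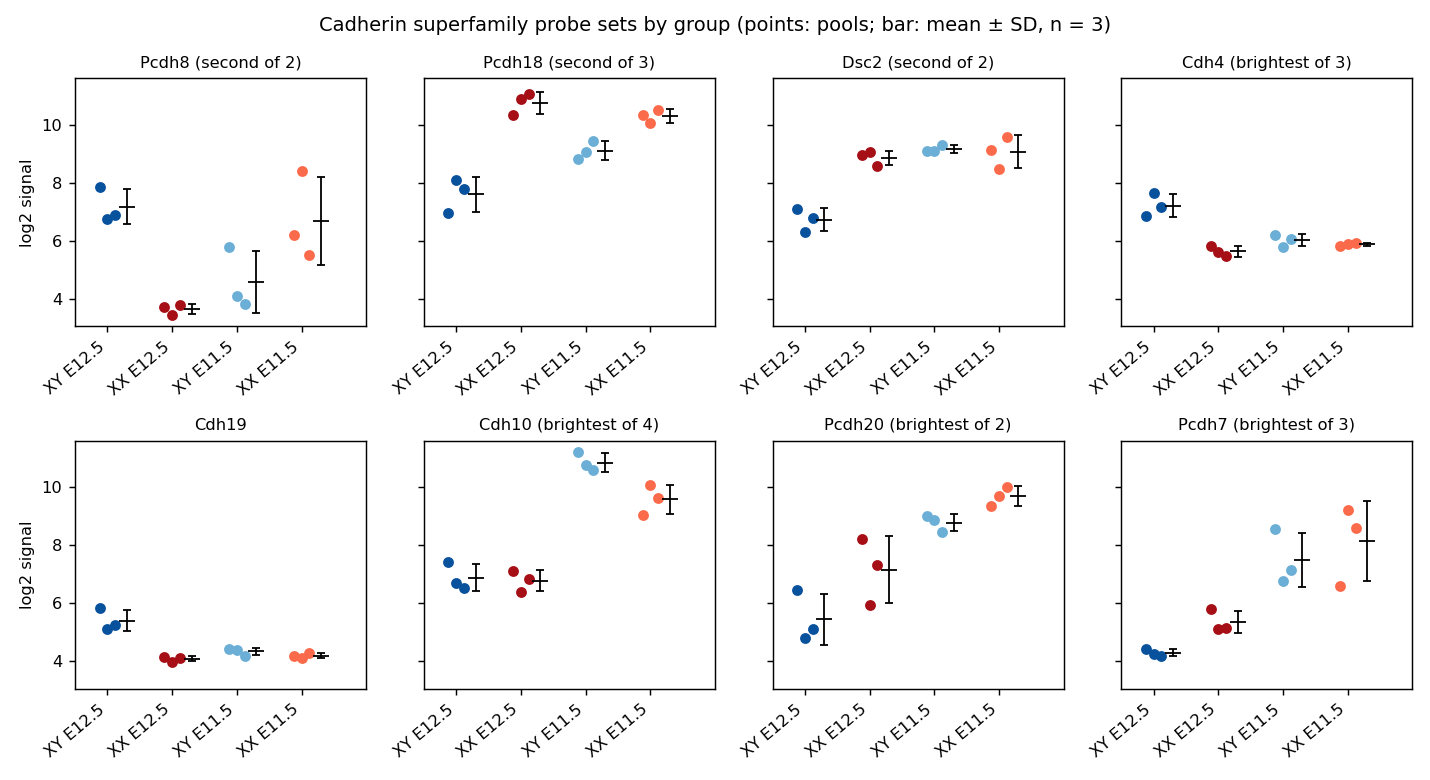
Each panel plots the log2 signal of 1 probe set (vertical axis) in the 4 groups, with a point for each of 3 pools and a bar for the mean and SD. Pcdh8 is high in XY E12.5 and XX E11.5 cells, Pcdh18 and Dsc2 are lowest in XY E12.5, Cdh4 and Cdh19 highest there, and Cdh10, Pcdh20 and Pcdh7 are lower at E12.5 than at E11.5 in both sexes.

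At E11.5, 0 of the 121 cadherin probe sets were called between XY and XX cells, against 0.0678% of all tested. At an unadjusted p under 0.05 the fit gave 16 members (13.2%), against 6.81% of all probe sets. The medians were -0.04 over the members and 0.05 over all. Of the 33 non-clustered protocadherin probe sets 23 had negative differences (69.7%, against 40.7% of all), with a median of -0.33. XX E11.5 pool 2, the array with high endothelial and mesenchymal markers, lay more than 1 log2 unit above both other XX E11.5 pools at 8 of these 33, of Pcdh8, Pcdh9, Pcdh12, Pcdh17 and Pcdh19. Without it 17 of the 33 were negative (51.5%, against 43.7% of all) and the median was -0.01, while the median over the 121 members was 0.02. Pcdh9, a non-clustered protocadherin best known from the nervous system, had the smallest p. At its brightest probe set the XY E11.5 pools read 7.47, 7.16 and 6.82 and the XX E11.5 pools 8.04, 8.17 and 8.16. The groups did not overlap, yet the difference of -0.97 (SE 0.16) had an adjusted p of 0.1. Without XX E11.5 pool 1, a single member was called: Pcdhb17, a clustered protocadherin, named here because it is that member, with a difference of -1.57 over all arrays (adjusted p = 0.11).

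In XY cells, 14 cadherin probe sets of 10 genes (11.6%) changed between the days, against 6.16% of all tested. Of these, 11 were lower at E12.5 (9.09%, against 2.98%) and 3 higher (2.48%, against 3.18%). The median change was -0.02 over the members and 0.02 over all. The type II cadherins Cdh10 and Cdh9, the protocadherins Pcdh20, Pcdh7, Pcdh11x and Pcdh18, and Dsc2 were lower at E12.5, while Cdh4, Cdh19 and 1 probe set of Dsg2 were higher. Of 14 calls, 7 were kept without each of the 12 arrays.

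Cdh10, a type II cadherin of brain and neurons, had the largest fall. At its brightest probe set it read 7.42, 6.70 and 6.54 in XY E12.5 and 11.21, 10.76 and 10.60 in XY E11.5. Each E12.5 pool lay more than 3 log2 units below each E11.5 pool, and the change was 15.7-fold (95% interval 9.61 to 25.5, adjusted p = 0.0001). The second-brightest of its 4 probe sets fell 4.57-fold (adjusted p = 0.0095). Both calls were kept without each array. Its chromosomal neighbour Cdh9 read 4.87, 4.81 and 4.91 in XY E12.5 and 6.94, 6.48 and 6.53 in XY E11.5. It was at least 3.45-fold lower at E12.5 (adjusted p = 0.034), and that call ended without any 1 of the 6 XY arrays (adjusted p from 0.057 to 0.096).

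Pcdh20 read 6.46, 4.80 and 5.10 in XY E12.5 and 9.01, 8.89 and 8.46 in XY E11.5 at its brighter probe set. It fell 10.1-fold (95% interval 4.27 to 23.9, adjusted p = 0.0076), and the call was kept without each array. Pcdh7, also known as brain-heart protocadherin, read 4.41, 4.27 and 4.17 in XY E12.5 and 8.55, 6.78 and 7.15 in XY E11.5 at its brightest probe set. All E12.5 pools were at the level read without transcript, so its fall was at least 9.24-fold (adjusted p = 0.015). It ended as a call only without XY E12.5 pool 3 (adjusted p = 0.057). The dimmest of its 3 probe sets gave a change of -1.26 (adjusted p = 0.032), lost without XY E12.5 pools 1, 2 or 3, XX E12.5 pool 3 or XY E11.5 pool 3 (adjusted p from 0.0514 to 0.11). The second-brightest did not fall, with means of 6.01 in XY E12.5 and 5.84 in XY E11.5.

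The X-linked protocadherin Pcdh11x read 6.92, 4.67 and 4.52 in XY E12.5 and 8.15, 7.86 and 7.78 in XY E11.5 at the brighter of its 2 probe sets. XY E12.5 pool 1 stood above the other XY E12.5 pools. The change was 5.89-fold lower (95% interval 2.44 to 14.2, adjusted p = 0.028), which is -2.56 on the log2 scale, and -3.33 without that pool (adjusted p = 0.0014). That call ended without XY E12.5 pools 2 or 3 or any XY E11.5 pool (adjusted p from 0.056 to 0.1).

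Dsc2 also fell in XY cells, to 7.11, 6.29 and 6.78 at E12.5, against 9.09, 9.09 and 9.31 at E11.5, at its dimmer probe set. This was 5.4-fold (95% interval 3.48 to 8.39, adjusted p = 0.0011), and the brighter probe set gave 5.98-fold (adjusted p = 0.0039). Pcdh18 fell 2.83-fold at its second-brightest probe set (adjusted p = 0.018) and at least 3.18-fold at the dimmest (adjusted p = 0.012). Leaving out XY E11.5 pool 3 ended the first (adjusted p = 0.073), and leaving out XY E12.5 pool 3 the second (adjusted p = 0.0523). Its brightest probe set gave -0.45 (adjusted p = 0.24).

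Cdh4 rose 2.29-fold in XY cells (95% interval 1.7 to 3.09, adjusted p = 0.0066), with 6.84, 7.64 and 7.15 at E12.5 and 6.20, 5.79 and 6.07 at E11.5. Cdh19 rose at least 2.09-fold (adjusted p = 0.0059), with 5.83, 5.12 and 5.26 at E12.5 and 4.44, 4.39 and 4.20 at E11.5. Both calls were kept without each array, although with the XY arrays fitted alone the adjusted p was 0.0532 for Cdh4 and 0.0523 for Cdh19. The probe sets of Dsg2, the desmoglein of simple epithelia, disagreed. At the third-brightest of 6, Dsg2 read 7.42, 8.20 and 9.29 in XY E12.5 and 6.09, 6.42 and 5.12 in XY E11.5, a 5.38-fold rise (adjusted p = 0.022) that was lost without XY E12.5 pools 2 or 3 or XY E11.5 pool 3 (adjusted p from 0.058 to 0.082). Its brightest probe set read 11.70, 11.26 and 11.56 in XY E12.5 and 11.67, 12.17 and 11.54 in XY E11.5. There the groups overlapped and the change was -0.28 (adjusted p = 0.52).

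The count of calls in XY was 8 with XY E12.5 pool 3 left out and 9 with XY E11.5 pool 3 left out. Over all probe sets 3.09% and 2.89% were then called, against 6.16%. With the XY arrays fitted alone the cadherin count was 8, beside 4.21% of all probe sets. The calls of Dsg2, Pcdh11x and both Pcdh18 probe sets ended there too (adjusted p = 0.08, 0.1, 0.074 and 0.075). Of the support cell markers, Lhx9 was lower in XY at E12.5 (8.37 to 8.65, against 12.05 to 12.59 at E11.5), as was Emx2 (8.26 to 8.76, against 11.67 to 11.73) and, by less, Wt1 (11.84 to 12.03, against 12.45 to 12.73). Gata4 (9.54 to 10.13, against 9.61 to 10.57) and Nr5a1 (lowest pool 11.50, against 11.71) overlapped between the days. The macrophage and leukocyte list averaged 7.59 to 7.90 in XY E12.5 and 6.11 to 7.03 in XY E11.5. Its part in these changes was not tested.

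In XX cells, 7 cadherin probe sets of 7 genes (5.79%) changed, against 3.11% of all tested. All 7 were lower at E12.5, as were 1.43% of all probe sets. The median change was -0.01 over the members and 0.06 over all. They were Cdh10, Pcdh17, Pcdh7, Pcdh20, Dsc2, Dsg2 and Pcdh9. Only Cdh10 and Pcdh9 were called without each of the 12 arrays in turn.

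Cdh10 read 7.11, 6.40 and 6.83 in XX E12.5 and 9.06, 10.08 and 9.62 in XX E11.5 at its brightest probe set. The fall was 7-fold (95% interval 4.29 to 11.4, adjusted p = 0.004). Pcdh9 read 7.11, 6.77 and 6.73 in XX E12.5 and 8.04, 8.17 and 8.16 in XX E11.5 at the brightest of its 3 probe sets. It fell 2.38-fold (95% interval 1.85 to 3.06, adjusted p = 0.0068). At these probe sets of both genes the groups were well apart. The second-brightest Pcdh9 probe set averaged 5.66 in XX E12.5 and 5.58 in XX E11.5, and the dimmest 5.60 and 5.21. Neither was lower at E12.5, so the fall was read at the brightest alone.

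Pcdh20 read 8.22, 5.93 and 7.32 in XX E12.5 and 9.35, 9.72 and 10.03 in XX E11.5 (5.83-fold lower at E12.5, adjusted p = 0.042). Pcdh7 read 5.80, 5.12 and 5.14 in XX E12.5 and 6.61, 9.23 and 8.61 in XX E11.5 at its brightest probe set (6.94-fold lower, adjusted p = 0.044). Its second-brightest did not fall (mean 5.97 in XX E12.5 and 5.74 in XX E11.5), and its dimmest averaged 4.86 and 5.52 without a call. The XX E12.5 pools were spread over more than 2 log2 units for Pcdh20, and the XX E11.5 pools for Pcdh7. Pcdh17, a non-clustered protocadherin of presynaptic sites, read 4.13, 4.09 and 3.95 in XX E12.5 and 6.67, 8.61 and 5.37 in XX E11.5 at its brighter probe set (at least 7.1-fold lower, adjusted p = 0.0493). Dsc2 read 10.43, 9.66 and 10.02 in XX E12.5 and 11.66, 11.89 and 11.81 in XX E11.5 at its brighter probe set (3.36-fold lower, adjusted p = 0.041), while the dimmer gave -0.21 (adjusted p = 0.71). Dsg2 read 6.38, 6.19 and 5.72 in XX E12.5 and 7.51, 6.93 and 8.06 in XX E11.5 at its fourth-brightest probe set (2.65-fold lower, adjusted p = 0.022), while its brightest probe set gave -0.57 (adjusted p = 0.15) and the third-brightest, called upward in XY, gave 1.04 (adjusted p = 0.26).

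The fitted change was -3.56 for Pcdh7 without XX E11.5 pool 1 (adjusted p = 0.012), -1.93 for Pcdh20 without XX E12.5 pool 2, and -1.96 and -3.58 for Pcdh17 without XX E11.5 pool 2 and pool 3 (over all arrays -2.80, -2.54 and -2.83). The calls of Dsg2, Dsc2, Pcdh20, Pcdh7 and Pcdh17 each ended in some of the fits that left out 1 array. A call could end with its fitted change unmoved: that of Dsc2 was -1.75 over all arrays and without any 1 XY E12.5 pool. That of Dsg2 ended without XX E12.5 pools 2 or 3 (adjusted p = 0.075 and 0.09). That of Dsc2 ended without XX E12.5 pools 2 or 3, any XX E11.5 pool or any XY E12.5 pool (adjusted p from 0.0543 to 0.14). That of Pcdh20 ended without XX E12.5 pools 2 or 3, any XX E11.5 pool, XY E12.5 pool 3 or XY E11.5 pools 2 or 3 (adjusted p from 0.0509 to 0.13). That of Pcdh7 ended without any E12.5 pool, XX E11.5 pools 2 or 3 or XY E11.5 pool 3 (adjusted p from 0.0548 to 0.15). That of Pcdh17 ended without any array but XX E11.5 pool 3 (adjusted p from 0.0516 to 0.16). With the XX arrays fitted alone, the calls of Dsg2, Pcdh17, Pcdh20 and Pcdh7 ended (adjusted p = 0.089, 0.12, 0.086 and 0.096). The number called was 2 without XX E12.5 pool 2 or pool 3, and 3 without XY E12.5 pool 3. It was 4 when XY E12.5 pool 2 or XX E11.5 pool 2 was left out. The share over all probe sets fell as well, from 3.11% to 0.493%, 0.414%, 2.05%, 2.57% and 1.34% in that order.

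**Figure D3:**
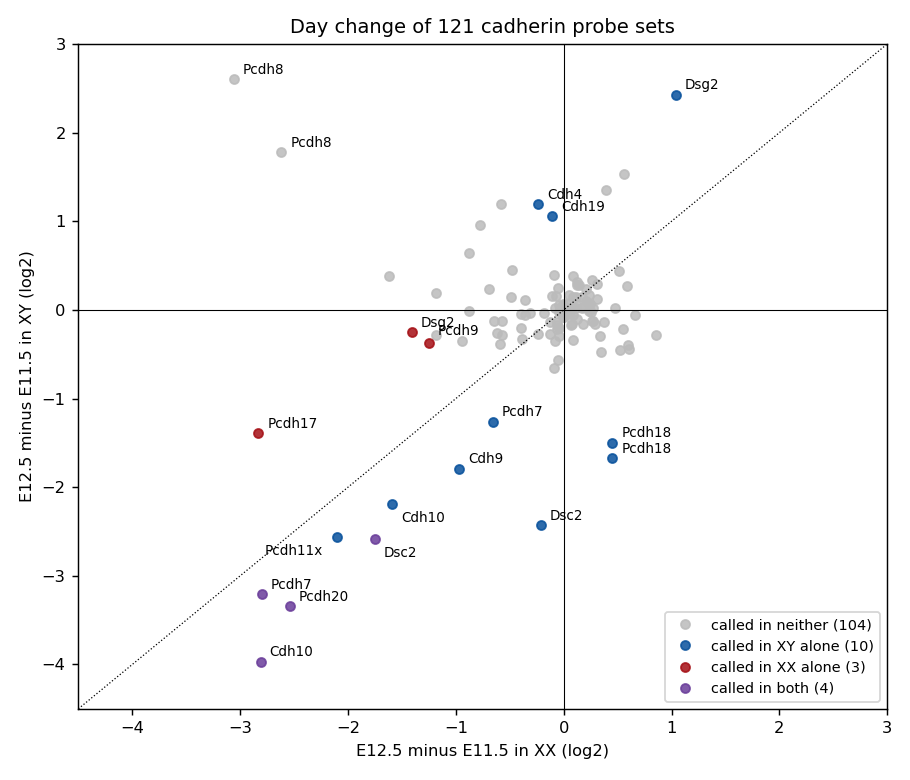
Each of 121 points is 1 probe set, with its log2 change E12.5 minus E11.5 in XX cells on the horizontal axis and in XY cells on the vertical axis, and the dotted line marks equal change. The 4 probe sets called in both sexes (purple, of Cdh10, Pcdh7, Pcdh20 and Dsc2) lie at lower left, and the 2 of Pcdh8 lie at upper left, with a fall in XX and a rise in XY that each missed the threshold.

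The same 4 probe sets, of Cdh10, Pcdh7, Pcdh20 and Dsc2, were called in both sexes, which is 57.1% of the 7 called in XX and 28.6% of the 14 called in XY. Over all tested probe sets, 354 were called in both sexes, which is 25.7% of those called in XX and 13% of those called in XY. The day comparisons of the sexes share no array in their group means. Both use the same estimate of spread from all 12 arrays, however, so the calls of the sexes are not independent. The plot of day changes shows all 4 below the line of equal change, Cdh10 farthest. The interaction was not called for any of these 4 probe sets.

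The sex difference itself changed between the days at 6 cadherin probe sets (4.96%), against 1.75% of all tested. It moved upward at 4 (3.31%, against 0.796%) and downward at 2 (1.65%, against 0.954%). The median was -0.04 over the members and -0.06 over all. Pcdh8 had the widest shift. At its dimmer probe set it read 7.86, 6.75 and 6.89 in XY E12.5, 3.70, 3.43 and 3.77 in XX E12.5, 5.78, 4.10 and 3.81 in XY E11.5, and 6.20, 8.40 and 5.49 in XX E11.5. XY cells were above XX cells at E12.5, whereas at E11.5 XY pool 1 lay above XX pool 3 and the other XY pools lay below all XX pools.

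The interaction for Pcdh8 was at least 5.66 on the log2 scale at the dimmer probe set (95% interval of the fitted value 3.41 to 7.92, adjusted p = 0.022), where the XX E12.5 mean of 3.64 and the XY E11.5 mean of 4.56 lay under 5.17. It was 4.40 at the brighter (2.47 to 6.32, adjusted p = 0.036), where all 4 group means lay above that level. At the dimmer probe set it was 4.81 without XX E11.5 pool 2 (adjusted p = 0.018) and 6.27 without XY E11.5 pool 1 or XX E11.5 pool 3 (adjusted p = 0.012 and 0.013). Within XX cells the day change was -3.06 at the dimmer probe set (adjusted p = 0.0502), and within XY cells it was 2.60 (adjusted p = 0.062), so neither was called alone. At E11.5 the sex difference was -2.13 (adjusted p = 0.62). The interaction was not called without XY E12.5 pools 1 or 3, any XX E12.5 pool or XY E11.5 pools 2 or 3 (adjusted p from 0.0509 to 0.066 at the dimmer probe set). At the brighter it was not called without the same arrays or XX E11.5 pools 1 or 2 (adjusted p from 0.057 to 0.094).

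The other interactions were 1.44 for Cdh4 (adjusted p = 0.031), 1.17 for Cdh19 (0.04), -2.23 for the dimmer Dsc2 probe set (0.024) and -2.12 for the dimmest of Pcdh18 (0.041). The XY E12.5 mean of that Pcdh18 probe set (4.62) lay under 5.17, so its shift was at least that size downward. For Cdh19 all means but that of XY E12.5 lay under 5.17, so its 1.17 is a fitted value and no bound. In each, the XY E12.5 pools stood apart from the other 3 groups, upward for Cdh4 and Cdh19 and downward for Dsc2 and Pcdh18. At E11.5 the sex differences at the last 2 probe sets were 0.09 for Dsc2 (adjusted p = 0.95) and -0.55 for Pcdh18 (adjusted p = 0.77). The other probe sets of both genes were already lower in all XY than in all XX pools at E11.5, without a call: the brighter Dsc2 probe set differed by -1.12 (adjusted p = 0.62), and the brightest and second-brightest of Pcdh18 by -0.95 and -1.20 (adjusted p = 0.26 and 0.41). None of the 6 interaction calls was kept without each of the 12 arrays. Each of these 4 ended without XY E12.5 pool 3, XX E12.5 pool 2 or XY E11.5 pools 2 or 3. Cdh4, Cdh19 and Pcdh18 also ended without XX E12.5 pool 3 or XX E11.5 pools 2 or 3, Dsc2, Cdh19 and Pcdh18 without XX E12.5 pool 1, Cdh19 and Pcdh18 without XX E11.5 pool 1, and Pcdh18 without XY E12.5 pool 1. The adjusted p then ran from 0.056 to 0.089 for Cdh4, 0.061 to 0.097 for Cdh19, 0.058 to 0.067 for Dsc2 and 0.0519 to 0.1 for Pcdh18. The number of interactions called was 0 without XX E12.5 pool 2, XY E11.5 pool 2, XY E11.5 pool 3 or XY E12.5 pool 3. It was 1 without XX E12.5 pool 1 or pool 3, and 3 without XY E12.5 pool 1, XX E11.5 pool 2 or XX E11.5 pool 3. Over all probe sets 0.911% to 1.93% were called in these fits, against 1.75%.

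The type I cadherins other than Cdh4 were not called in any comparison. N-cadherin Cdh2, a mesenchymal and gonadal somatic adhesion protein, averaged 10.02 ± 0.34 in XY E12.5, 10.47 ± 0.19 in XX E12.5, 10.49 ± 0.51 in XY E11.5 and 10.12 ± 0.25 in XX E11.5 at its brighter probe set (SD, n = 3 each). P-cadherin Cdh3 averaged 7.64 ± 0.23, 7.41 ± 0.05, 7.61 ± 0.23 and 7.33 ± 0.57 in the same order of groups, and the muscle cadherin Cdh15 ranged from 5.60 to 6.10 over the 12 arrays. E-cadherin Cdh1, the adhesion protein of epithelia and germ cells, varied within groups instead, with 5.61, 7.30 and 4.13 in XY E12.5, 5.05, 5.80 and 4.75 in XX E12.5, 5.48, 4.68 and 4.97 in XY E11.5, and 6.16, 7.64 and 4.44 in XX E11.5. Its spread within both XY E12.5 and XX E11.5 covered about 3 log2 units. The XX E11.5 value of 7.64 came from pool 2, the array with high endothelial and mesenchymal markers.

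The clustered protocadherins were represented by 22 Pcdhb genes and Pcdhgc4 on chromosome 18, with 29 probe sets. None was called in any of the 5 comparisons over all 12 arrays, where 0.0678% to 7.72% of all tested probe sets were called. Their median difference lay between -0.07 and 0.05 in all 5, and 10 of the 29 stayed at or under 5.17 on every array. Pcdhgc4, of the gamma cluster and shown as the brightest signal of the class (which does not rank transcript levels), read 9.27, 8.82 and 8.47 in XY E12.5, 8.35, 8.06 and 7.97 in XX E12.5, 8.50, 8.75 and 8.46 in XY E11.5 and 7.66, 8.50 and 7.80 in XX E11.5. Members of this cluster are close in sequence, and probes can read more than 1 of them.

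The remaining classes were small, with 1 Dachsous, 2 Celsr, 6 cadherin-related and 8 other Cdh probe sets, so few calls say little about them. Dachsous Dchs1 averaged 6.72 ± 0.20 in XY E12.5, 7.49 ± 0.39 in XX E12.5, 6.78 ± 0.09 in XY E11.5 and 6.83 ± 0.43 in XX E11.5 and was not called. Celsr2, a planar polarity cadherin, ranged from 6.89 to 7.88. The GPI-anchored cadherin Cdh13 (T-cadherin) ranged from 6.53 to 7.67 at its brightest probe set. In its class, which also holds Cdh16, Cdh17, Cdh23 and Cdh26, 0 of 8 probe sets were called in any comparison. Of all tested probe sets 0.0678% to 7.72% were called in a comparison.

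XX E11.5 pool 2, the array with the high endothelial and mesenchymal marker levels, was also the highest of the 12 arrays for 35 cadherin probe sets (28.9%), against 8.63% of all tested. At 20 probe sets of 15 genes (16.5%, against 3.56%) it lay more than 1 log2 unit above both other XX E11.5 pools. Cdh6, a type II cadherin of kidney and other epithelia, read 7.93, 11.05 and 7.37 in the 3 XX E11.5 pools, and 6.60 to 7.98 in the other 9 arrays. Cdh11, the type II cadherin of mesenchyme, read 8.73, 10.87 and 8.80, and 6.54 to 8.78 elsewhere. Pcdh12, which is known from endothelium, read 5.37, 8.15 and 4.89 at the second-brightest of its 3 probe sets, and 5.16 to 5.75 elsewhere. Its other probe sets were not raised on that array, with 6.02, 5.79 and 5.93 at the brightest and 5.29, 5.33 and 5.11 at the dimmest. The X-linked Pcdh19 read 6.36, 9.08 and 5.30. The dimmer Pcdh8, the brighter Pcdh17 and the second-brightest Cdh10 probe set were among the 20, with 8.40, 8.61 and 8.48 on that array. The part of these marker levels in the XX E11.5 values of the cadherins was not tested. Without this array the day change in XX was -1.96 for Pcdh17 (adjusted p = 0.068) and the call of the brightest Cdh10 probe set was kept.

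**Figure D4:**
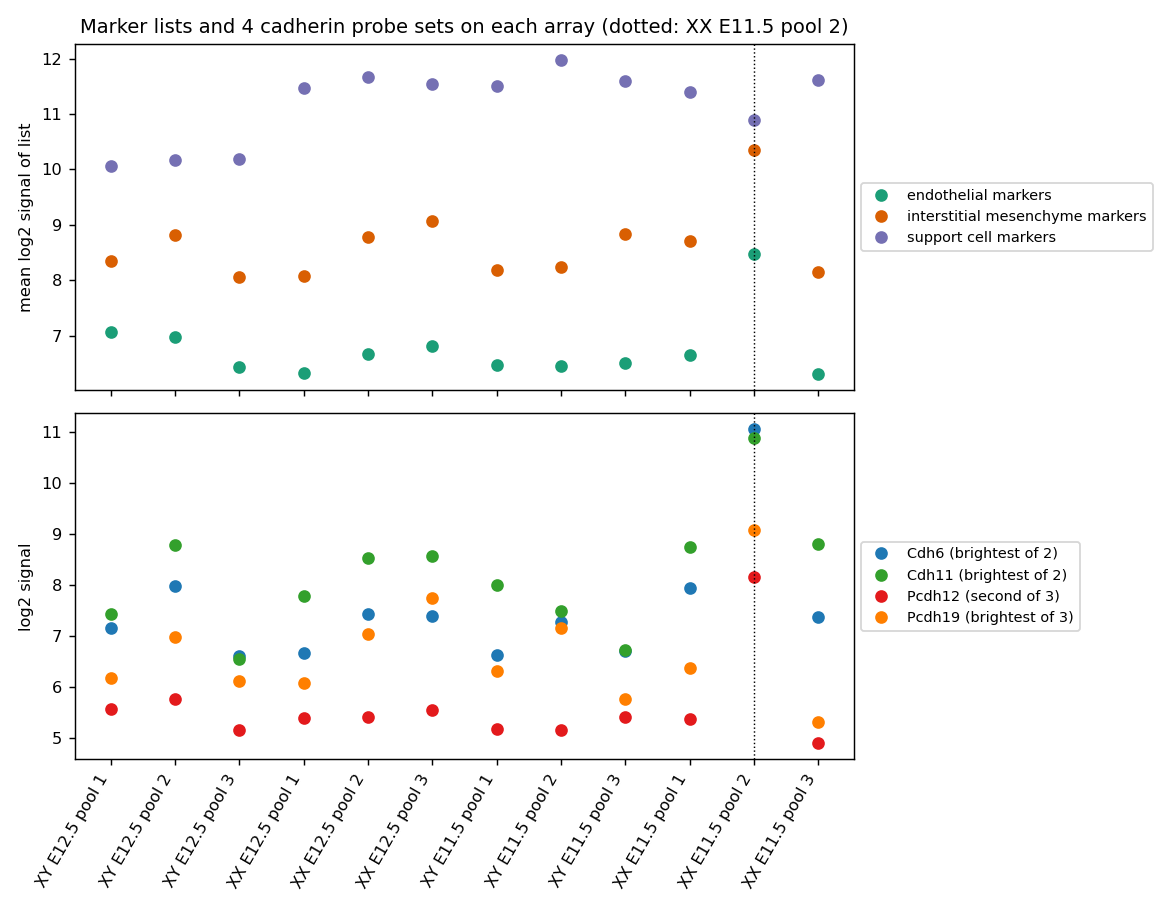
The horizontal axis is the 12 arrays by group and pool. The upper panel gives the mean log2 signal of the endothelial, interstitial mesenchyme and support cell marker lists, and the lower panel the log2 signal of Cdh6, Cdh11, Pcdh12 and Pcdh19 at the probe set of each that the text gives. All 4 cadherins and both non-support lists are highest in XX E11.5 pool 2 (dotted line), and the support cell list is lowest in the 3 XY E12.5 pools, where Lhx9 and Emx2 are low and Gata4, Wt1 and Nr5a1 overlap with XX E12.5. Outside XY E12.5 the support cell list is lowest in XX E11.5 pool 2, at 10.90.

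Genes that work with cadherins were read at the brightest probe set of each gene, for 55 of 57 listed. At E12.5, 6 of the 55 differed between the sexes, where 11.1% of all genes did so. Higher in XY were Ctnna2 (neuronal alpha-catenin, at least 3.34-fold, adjusted p = 0.00085), Pkp4 (a plakophilin-like armadillo protein, 2.94-fold, adjusted p = 0.016), Prickle1 (a planar polarity protein, 6.38-fold, adjusted p = 0.0069), Rad21 (a cohesin subunit, 2.69-fold, adjusted p = 0.012) and Ptk2b (the kinase Pyk2, which clustered protocadherins inhibit, 7.54-fold, adjusted p = 1.9e-05). Cyfip2, a subunit of the WAVE actin regulator, was 1.93-fold lower (adjusted p = 0.031). Ctnna2 averaged 6.15 ± 0.52 in XY E12.5 and 4.41 ± 0.08 in XX E12.5 (SD, n = 3 each), and the XX level was under 5.17. Ptk2b averaged 9.80 ± 0.08 in XY E12.5 and 6.89 ± 0.14 in XX E12.5 (SD, n = 3 each).

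In XY cells, 7 of the 55 partner genes changed between the days, where 7.01% of all genes did. Ctnna2, Pkp4, Prickle1 and Ptk2b rose 2.98-fold (at least), 3.14-fold, 4.01-fold and 3.12-fold in that order (adjusted p = 0.0025, 0.016, 0.035 and 0.00079). Desmoplakin Dsp, the desmosomal linker to intermediate filaments, rose 2.63-fold (adjusted p = 0.031). Plakophilin Pkp2 fell 1.55-fold (adjusted p = 0.043) and the phosphatase Ptpn1 2.06-fold (adjusted p = 0.011). Among desmosome genes in XY cells, Dsp therefore rose and Dsc2 and Pkp2 fell at the probe sets read. The Dsg2 probe sets disagreed, and plakoglobin (Jup), Pkp1 and Pkp3 were not called. In XX cells 2 of the 55 changed, where 3.76% of all genes did: Zeb2, a repressor of E-cadherin transcription, fell 5.53-fold (adjusted p = 0.042), and Cyfip2 rose 3.44-fold (adjusted p = 0.0062). At E11.5 none of the 55 was called between the sexes, where 0.0556% of all genes were. The interaction was called for Ctnna2, Rad21 and Ptk2b (3 of 55, where 2.83% of all genes were).

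Of these 18 partner calls, 8 were kept without each of the 12 arrays. At E12.5, Pkp4 ended without XY E12.5 pool 1 or XX E12.5 pool 1 (adjusted p = 0.064 and 0.058), Rad21 without XY E12.5 pool 3 (0.0511), and Cyfip2 without any XY E12.5 pool or XX E12.5 pools 1 or 3 (0.051 to 0.1). In XY cells, Pkp4 ended without XY E12.5 pool 1 or XY E11.5 pool 3 (0.056 and 0.066), Dsp without any XY E12.5 pool or XY E11.5 pool 3 (0.054 to 0.1), Prickle1 without any XY array or XX E12.5 pool 2 (0.0537 to 0.1), and Pkp2 without any array but XY E11.5 pool 1 and XX E11.5 pool 2 (0.051 to 0.15). In XX cells, Zeb2 ended without any E12.5 pool, XX E11.5 pools 2 or 3 or XY E11.5 pool 3 (0.0511 to 0.14). For the interaction, Ctnna2 ended without XX E12.5 pools 2 or 3, XY E11.5 pools 2 or 3 or XX E11.5 pool 2 (0.0507 to 0.064). Rad21 ended without any XX E12.5 pool, XY E12.5 pools 1 or 3, XY E11.5 pools 2 or 3 or XX E11.5 pools 2 or 3 (0.079 to 0.12). With the compared arrays alone, the calls of Cyfip2 at E12.5 (0.0522), of Pkp2, Pkp4, Dsp and Ptpn1 in XY (0.13, 0.0546, 0.1 and 0.054) and of Zeb2 in XX (0.074) ended.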

How the data were processed

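Per the labels' protocols, total RNA of sorted cell pools was isolated with a PicoPure kit, amplified with a TargetAmp kit and labelled with biotin. The authors deposited 1 table with a log2 value per probe set for each of 12 arrays. How it was summarised and normalized is not given in the sources used here, and neither is the log base, which was taken as log2 because the largest value was 14.45. The median of an array lay between 6.494 and 6.592. Precision is limited by having 3 arrays per group. Of 45037 probe sets, 798 blank on every array and 1 blank on some were left out.

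Symbols came from the platform annotation supplied with the series, updated through Entrez identifiers with RefSeq (34126 probe sets matched). Group means over all 12 arrays were compared in limma (version 3.58.1, R version 4.3.3, functions lmFit and eBayes, 8 residual degrees of freedom), with two-sided Benjamini-Hochberg adjustment over 44238 probe sets. The fit was tested on simulated data. Every adjusted p is from limma.

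Text names each called member gene, the brightest gene of each class and all type I cadherins. The single arrays of Cdh6, Cdh11, Pcdh12, Pcdh19 and Pcdhb17 and the TBP and NF-Y motifs were chosen after their values or sequences were seen. The members, partner and marker lists and tests were chosen with earlier results of these data known.

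Alternatives were quantile normalization, brighter probe sets alone, a prior variance that follows the mean, array weights, pool number as a block, the compared arrays alone and leaving out each array. Figures were drawn with matplotlib 3.10.9.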

Additional observations from a re-analysis of the deposited data

Results flagged for a closer look

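The interaction test called 6 cadherin probe sets (4.96%, against 1.75% of all tested), which means a fitted sex difference that changed between the days. Of these 6 calls, 0 were kept without each array in turn. In some of the fits that left out a single array the number called was 0. The sex difference at E12.5 minus that at E11.5 was at least 5.66 (dimmer) and 4.40 (brighter) on the log2 scale at the 2 probe sets of Pcdh8, 1.44 for Cdh4 and 1.17 for Cdh19. It was -2.23 at the dimmer Dsc2 probe set and -2.12 at the dimmest Pcdh18 probe set, where the shift was at least that size. Cdh19 had 3 of its 4 group means under 5.17, so its value is no bound. No test for a single outlying sample was run within groups of 3 pools.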

How the results depend on the processing

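No cadherin call changed direction under the alternatives run. Several of these leave the group means unchanged, so they could not have changed a direction. Of 37 calls, 16 were kept without each array in turn. The setting with brighter probe sets alone left 17 of the 37 untested. Under the settings that did not leave out arrays, 23 were kept wherever tested, 15 of them tested in each, and 11 calls were tested and kept under every alternative. Of 18 partner calls these numbers were 9, 7 and 5. The number called at E12.5 between the sexes was 16 with array weights, against 10, and ranged from 8 to 11 without single arrays. Over all probe sets 13.1% were called with those weights, against 7.72%, and 4.64% to 8.51% without single arrays. At E11.5 the number of cadherin calls was 0 to 1 without single arrays, beside 0.052% to 0.129% of all probe sets. In XY it was 8 both with brighter probe sets alone and with the compared arrays alone, against 14, and 8 to 16 without single arrays. Over all probe sets the shares were 12.9% and 4.21%, against 6.16%, and 2.89% to 6.96%. In XX the number was 11 with array weights and 3 with the compared arrays alone, against 7, and 2 to 8 without single arrays. Over all probe sets the shares were 5.44% and 1.41%, against 3.11%, and 0.414% to 4.4%. The interaction gave 3 with brighter probe sets alone, against 6, and 0 to 8 without single arrays. Over all probe sets the share was 4.54%, against 1.75%, and 0.911% to 2.88%. The cause of these shifts was not tested, although brighter probe sets alone leave fewer features and the compared arrays alone leave fewer arrays. With pool number as a replicate block the counts were 12 at E12.5 and 0 at E11.5 between the sexes, 12 in XY, 6 in XX and 5 for the interaction. The shares over all probe sets were 6.97%, 0.0769%, 5.85%, 2.71% and 1.36% in that order. The labels do not say whether the pool numbers pair the pools. Of 18 same-number pairs across groups, 4 had deviations correlated over 0.1 (range -0.398 to 0.235). With 3 pools per group these correlations cannot settle the question. Signals near 5.17 or below compress differences, and a missed threshold with 3 pools per group does not show equal levels.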
